A study of Mus musculus with 4 samples.

Results

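Integrins are receptors that hold cells to their surroundings, and laminins are among the matrix proteins they hold. The genes described here are the integrin and laminin chains of the mouse, taken as every gene whose name on the array follows the pattern Itga, Itgb, Lama, Lamb or Lamc with its chain number or letter. The rule gave 36 genes on 79 probes, of 27975 genes on 41174 probes in all. They were 25 integrin chains and 11 laminin chains. Of these, 26 were measured well enough to be tested, which were 11 of 17 integrin alpha chains, 6 of 8 integrin beta chains and 9 of 11 laminin chains.

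The cells were induced hepatocyte-like (iHep) cells of the C57BL/6 strain, made from cells that the labels call MDFs and grown in 3D or in 2D culture. The 2 independent experiments, iHep-2 and iHep-1, each gave 1 array of 3D and 1 array of 2D culture, so each culture had 2 arrays and there were 4 arrays in all. The number of arrays limits the precision. A plus sign stands in the titles of both 2D arrays and its meaning is not stated, so what it marks cannot be told apart from culture. The inducing factors, the 3D method and the number of animals are likewise not given in the sources used here.

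An integrin is a pair of 1 alpha and 1 beta chain, and its outer part grips matrix proteins while its inner tail is joined to the actin cytoskeleton through talin and kindlin. The beta chain of Itgb1 pairs with many alpha chains, Itgav pairs with several beta chains, and Itgb4 pairs with Itga6 alone and is tied to keratin filaments in hemidesmosomes. A laminin is a trimer of 1 alpha, 1 beta and 1 gamma chain that forms the sheet of the basement membrane. In liver, the bile ducts rest on such a sheet, whereas hepatocytes face a space without a continuous one.

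Each level below is a probe's log2 processed signal minus the 75th percentile of its array, so 0 is the 75th percentile. Levels of different probes cannot be set against each other. Differences in culture are 3D minus 2D and differences between experiments are iHep-2 minus iHep-1, both in log2 units, so a gene is called higher or lower against its array as a whole. With scaling to the spike-in controls, the median of all tested genes in 3D minus 2D was -1.08, and the mean differences of 11 of the 26 chains then turned from positive to negative. In bulk RNA, fewer cells of a type and less RNA per cell cannot be told apart. Probes well above background numbered 23061 and 24413 in 3D of iHep-2 and iHep-1, against 24378 and 23745 in 2D, and the 75th percentiles ran from 399 to 616 intensity units. Summed scaled signals of hepatocyte markers were 1453 and 920.0 in 3D of iHep-2 and iHep-1, against 662.1 and 879.8 in 2D. All 9 of these markers on the array were well above background on at least 2 arrays.

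The probes that carry the main results are shown first, 5′ to 3′ as in the deposited files, with positions in mouse build mm9. For Itgb4, the opening 30 bases of each of its 3 probes of 60 bases are given, because the probes differed in their values. Capitals mark sequence from the 50 bases that 2 of the probes share. For Itgb3, bases 31 to 60 of the brighter probe and bases 1 to 30 of the other are given, because these probes disagreed in direction. Capitals mark a TG repeat.
Itgb4, chr11:115869557-115869616, plus strand: CATAAAGTGGGTAGAGGTGATACAAGGTCT
Itgb4, chr11:115869547-115869606, plus strand: gtccaggaacCATAAAGTGGGTAGAGGTGA
Itgb4, chr11:115855887-115855946, plus strand: tggacagatatctactgaaaccatccttgt
Itgb3, chr11:104528490-104528560, plus strand: acaattTGTGTGTGTGTGTatgggtgggat
Itgb3, chr11:104531672-104531731, plus strand: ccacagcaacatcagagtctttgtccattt

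The TG repeat is 13 bases long. It is in 7 of the 41174 probes on either strand, which is 0.017% of them, and in 1 of the 79 integrin and laminin probes. The positions the files list for that probe span 71 bases, more than its 60.

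The comparison of 3D with 2D culture asked how the cells' receptors and ligands differed with culture form. Of the 26 tested chains, 7 had a higher measured value in 3D in both experiments (33.2% of all tested genes), 9 had a lower one in both (33.0%), and 10 went in opposite directions (33.8%). The 7 were Itga1, Itga10, Itga6, Itga7, Itgae, Itgb4 and Lamb3. The 9 were Itga3, Itga8, Itgav, Itgb1, Itgb3, Lama5, Lamb1, Lamb2 and Lamc1. Arrays on which a chain was not well above background are counted at their measured value. Because of such arrays the direction was not established for Itga8, Itgae, Itgax and Lama2 in iHep-2 and for Itgb6 in iHep-1. The shares lie close to those of all genes.

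With a measured difference of 2-fold in both experiments as the limit, 0 chains were higher in 3D (4.26% of all tested genes) and 0 were lower (2.13%). In iHep-2 alone, the measured values of Itga10, Itgal and Lama3 were higher by that much (3 chains, 12.6% of all tested genes), and those of Itga3, Itgb6, Lama5 and Lamb1 lower (4 chains, 8.32%). For Lama3 and Lamb1 the size in iHep-2 is uncertain, as given below, because their probes were not well above background on 1 of its arrays. In iHep-1 alone, 4 chains were higher by that much (7.8%), Itgae, Itgb4 and Lamb3 among them, and Itga8, Lama2 and Lama3 lower (3 chains, 4.07%). limma called 0 of 16451 genes at an adjusted p of 0.05 (0.0%) and 1157 at an unadjusted p of 0.05 (7.03%), of which Itga7 and Itgb1 were chains. With the experiment as a block it also called 0 genes (0.0%), and 2178 at an unadjusted p of 0.05 (13.2%), of which Itga10 and Itga7 were chains. The chains' adjusted p from limma ran from 0.684 to 0.997, and from 0.373 to 0.992 with the block. The differences in culture given below are therefore values that did not pass this test.

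The median difference of the 17 tested integrins was 0.08 in iHep-2 and 0.01 in iHep-1, beside 0.04 and -0.02 for all tested genes. That of the 9 tested laminins was -0.41 in iHep-2 and -0.36 in iHep-1, and the median of their mean differences, -0.35, turned to 0.065 with normexp background correction. Groups did not overlap for 9 chains. Both 3D arrays lay above both 2D arrays for Itga1, Itga10, Itga7 and Itgb4, which are 4 of 26 (19.8% of all tested genes). They lay below both 2D arrays for Itga3, Itgb1, Lama5, Lamb1 and Lamc1, which are 5 of 26 (21.5%). With normexp, Itga10 and Lamb1 were not among these, and their mean differences were 0.29 and -0.053, against 0.91 and -1.83 as reported.

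**Figure D1:**
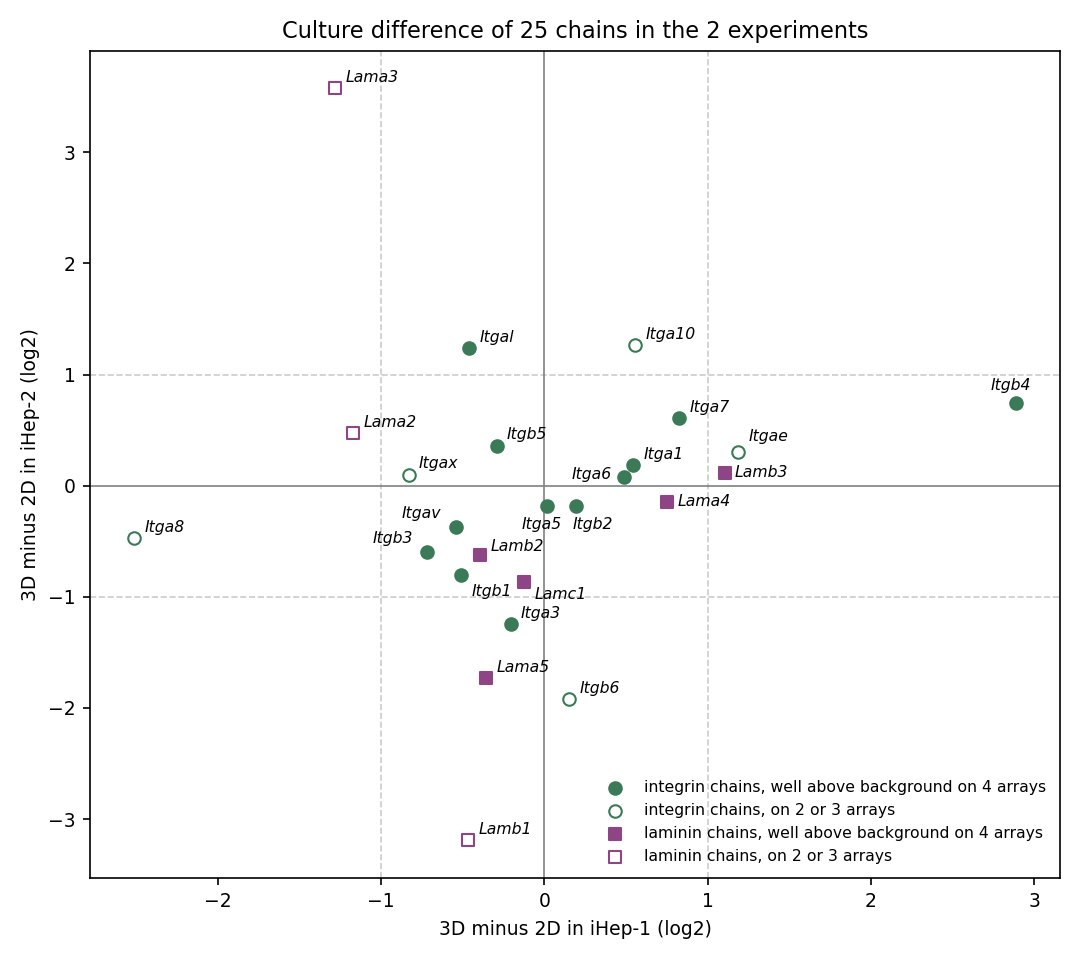
Difference of 25 of the 26 tested chains between 3D and 2D culture in log2 units, with iHep-1 on the horizontal and iHep-2 on the vertical axis. Circles are integrin chains and squares laminin chains, filled where the probe was well above background on 4 arrays and open where on 2 or 3, and dashed lines mark 2-fold; values not well above background are plotted as measured. Itgb4 lies farthest to the right, at 2.89 in iHep-1 and 0.74 in iHep-2, and no point lies beyond 2-fold in the same direction in both.

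Itgb4, the hemidesmosome chain, was higher in 3D in both experiments. Its level was 2.05 in 3D of iHep-2 and 1.62 in 3D of iHep-1, against 1.31 and -1.27 in 2D of the same experiments. The 2D array of iHep-1 was the low one, and the other 3 lay within 1 log2 unit of each other. The difference was 0.74 in iHep-2 and 2.89 in iHep-1, which are 1.68-fold and 7.40-fold. The mean difference was 1.82 ± 0.997 (SE of the limma fit, adjusted p = 0.711, 2 arrays per culture). It was positive in both experiments with spike-in scaling too.

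The probes of Itgb4 agreed in direction and not in size. The probe that shares 50 bases with the brightest gave 0.76 in iHep-2 and 2.77 in iHep-1. The remaining probe, built on a neonatal cerebellum cDNA that lies upstream on the same strand, gave 1.64 in iHep-2 and 1.04 in iHep-1. That probe stood at -4.28 and -5.48 in 3D against -5.92 and -6.52 in 2D and was well above background on 3 arrays. The array on which it was not was 2D of iHep-1, so the size of its difference in iHep-1 is uncertain. When a gene's probes were averaged, Itgb4 was the 1 integrin past 2-fold higher in 3D in each experiment.

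**Figure D2:**
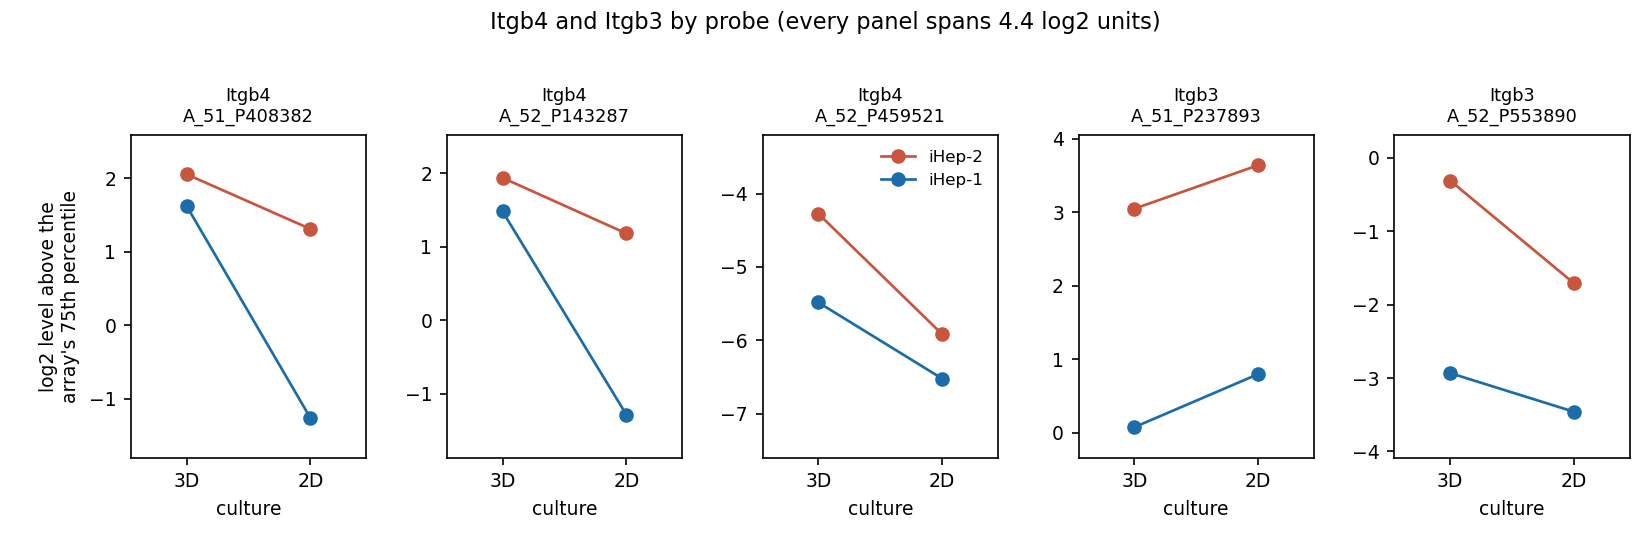
Levels of the 3 Itgb4 probes and the 2 Itgb3 probes on each array, as log2 above the array's 75th percentile, with 3D left of 2D, iHep-2 in red and iHep-1 in blue; every panel spans 4.4 log2 units. All Itgb4 probes are higher in 3D, whereas the brighter Itgb3 probe is lower in 3D and the other is higher, and both Itgb3 probes are higher in iHep-2.

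Itga6, the alpha chain that pairs with Itgb4 or with Itgb1 to bind laminin, differed little with culture and more between experiments. Its level was 2.98 in 3D of iHep-2 and 1.49 in 3D of iHep-1, against 2.91 and 1.01 in 2D. The iHep-2 arrays were both above the iHep-1 arrays. The culture difference was 0.08 in iHep-2 and 0.49 in iHep-1.

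Lama3 and Lamb3 are chains of the laminin that the Itga6 and Itgb4 pair binds in epithelia such as skin. Lamb3 was at -2.40 in 3D of iHep-2 and -4.07 in 3D of iHep-1, against -2.52 and -5.17 in 2D. The 2 arrays of iHep-2 were alike, and in iHep-1 the 3D array was 2.15-fold above the 2D array. As for Itgb4, the 2D array of iHep-1 was the lowest of the 4.

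The sequence of the Lamb3 probe is given because this chain was lowest in 2D of iHep-1 and higher in iHep-2 in both cultures.
Lamb3, chr1:195167088-195167147, plus strand: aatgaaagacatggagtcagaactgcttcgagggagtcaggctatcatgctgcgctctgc

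The brighter Lama3 probe was well above background on 3 arrays. Its level was -4.93 in 3D of iHep-2 and -4.55 in 3D of iHep-1, against -3.26 in 2D of iHep-1, and it was not well above background in 2D of iHep-2. In iHep-1 this probe was 1.28 log2 units lower in 3D than in 2D. The second Lama3 probe was well above background on both iHep-2 arrays and on neither of iHep-1, and it differed by 0.18 in iHep-2 and by 0.21 in iHep-1. The probes thus disagreed, and neither a culture direction nor a bound is given for Lama3.

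**Figure D3:**
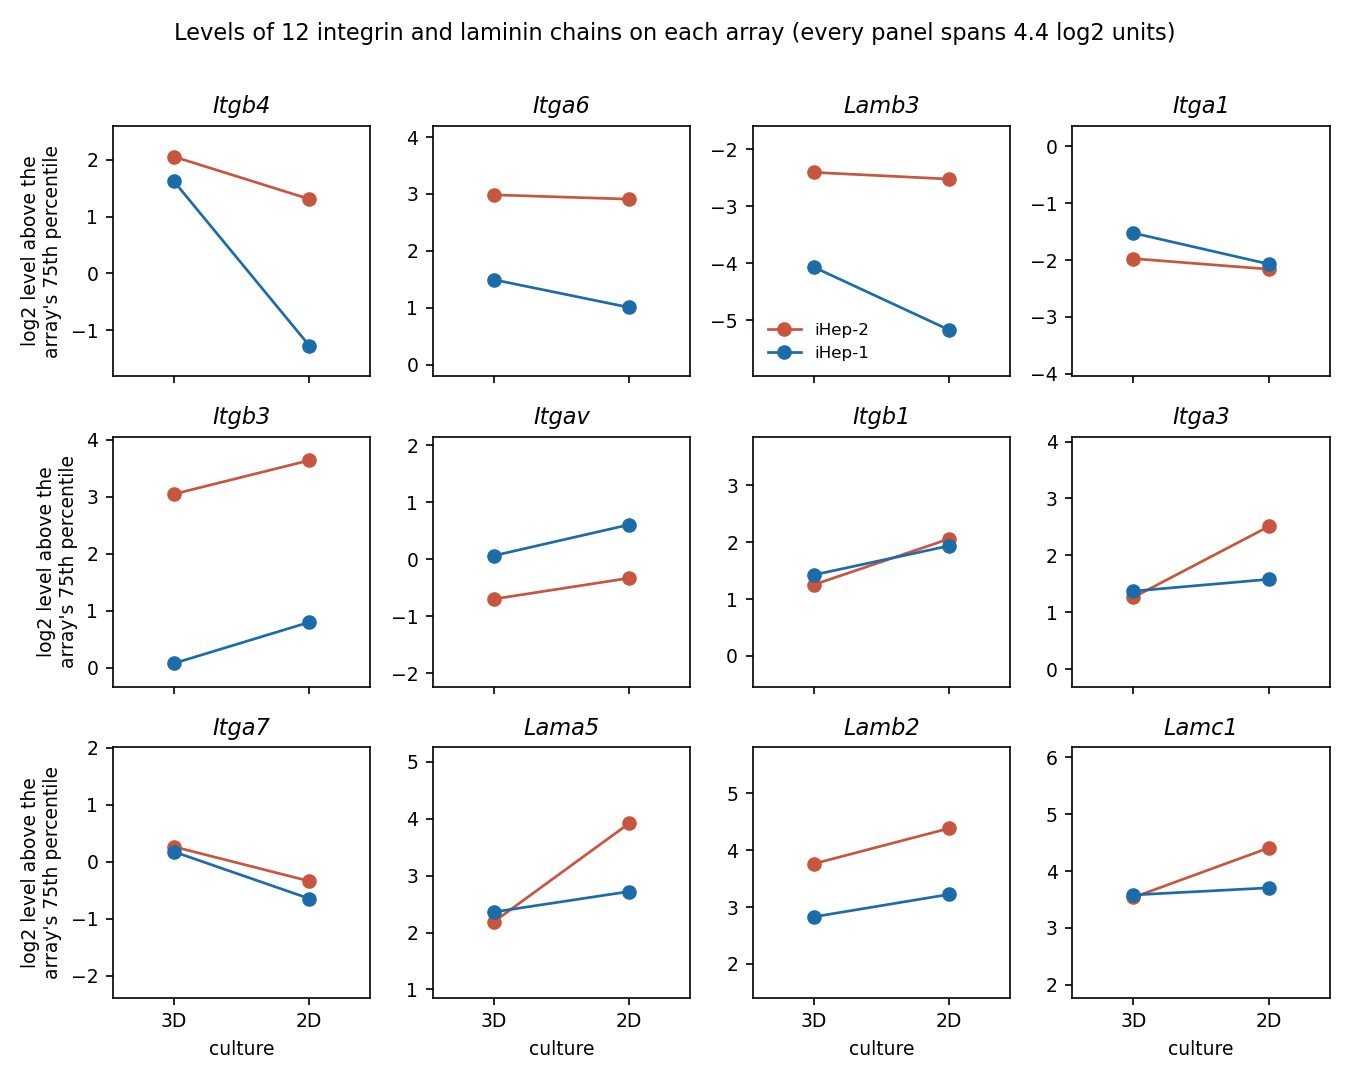
Levels of 12 chains on each array as log2 above the array's 75th percentile, with 3D left of 2D, iHep-2 in red and iHep-1 in blue, and a line joining the arrays of an experiment; every panel spans 4.4 log2 units and heights cannot be compared between panels. Itgb4 and Lamb3 have their lowest point in 2D of iHep-1, and Itgb3 and Itga6 are higher in iHep-2 in both cultures.

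Itgb1, the beta chain shared by most laminin and collagen receptors, was lower in 3D. Its level was 1.25 in 3D of iHep-2 and 1.42 in 3D of iHep-1, against 2.06 and 1.93 in 2D. The groups did not overlap, and the mean difference was -0.66 ± 0.22 (SE of the limma fit, adjusted p = 0.684). The difference was -0.81 in iHep-2 and -0.51 in iHep-1. The probe lies on 10 spots per array, whose SD on an array was 0.041 to 0.065 log2 units, a technical spread that says nothing of the spread between cultures. A second probe gave -0.75 in iHep-2 and -0.49 in iHep-1.

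Another Itgb1 probe, which the files describe as the beta1D messenger, a form known from striated muscle, was well above background on 0 arrays. Its opening 30 bases and the whole second probe are given because only the second probe was well above background, on 4 arrays.
Itgb1, second probe, chr8:131246349-131246408, plus strand: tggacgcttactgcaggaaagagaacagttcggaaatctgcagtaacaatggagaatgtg
Itgb1, beta1D probe, chr8:131250931-131255949, plus strand: aactatggacgtaaagctggtctctgagtt

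The alpha chains that pair with Itgb1 were not alike. Itga3, a laminin receptor chain of epithelia, was at 1.26 in 3D of iHep-2 and 1.37 in 3D of iHep-1, against 2.51 and 1.58 in 2D. The 2D array of iHep-2 stood apart, and the difference was -1.25 in iHep-2 and -0.21 in iHep-1. The other Itga3 probes gave -1.33 and 0.15 in iHep-2, and -0.17 and -0.27 in iHep-1, so 1 of the 3 was not lower in 3D of iHep-2. Itga7, the laminin receptor chain best known from muscle, was at 0.26 in 3D of iHep-2 and 0.18 in 3D of iHep-1, against -0.34 and -0.65 in 2D. It was higher in 3D by 0.61 and 0.82, a mean of 0.71 ± 0.24 (SE of the limma fit, adjusted p = 0.684), with no overlap, and its second probe gave 0.59 and 0.83. With spike-in scaling its mean difference was negative.

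Itga1 and Itga10, chains of collagen receptors, were also higher in 3D on both arrays than on either 2D array. Itga1 was at -1.98 in 3D of iHep-2 and -1.53 in 3D of iHep-1, against -2.16 and -2.07 in 2D. These differences, 0.19 in iHep-2 and 0.54 in iHep-1, were small. Another Itga1 probe gave -0.44 and 0.44, and the third gave 1.27 and 0.75. Itga10 was at -5.05 in 3D of both experiments, against -5.61 in 2D of iHep-1, and was not well above background in 2D of iHep-2. It was at least 2.26-fold higher in 3D in iHep-2.

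Itga5, the chain of the main fibronectin receptor, was at -3.81 in 3D of iHep-2 and -3.05 in 3D of iHep-1, against -3.63 and -3.06 in 2D. It differed by -0.18 in iHep-2 and by 0.01 in iHep-1. Itga8, the nephronectin receptor chain known from mesenchyme, was found above background in iHep-1 only, at -5.05 in 3D against -2.54 in 2D. In iHep-1 it was 2.51 log2 units lower in 3D, and the other probe well above background there gave -2.50.

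The chains that pair with Itgav bind vitronectin, fibronectin and other proteins with an arginine-glycine-aspartate motif. Itgav was at -0.70 in 3D of iHep-2 and 0.06 in 3D of iHep-1, against -0.33 and 0.61 in 2D. It was lower in 3D in both experiments, by 0.37 and 0.54, and a second probe by 0.15 and 0.16. Itgb5, a chain of the vitronectin receptor, was at 5.20 in 3D of iHep-2 and 5.04 in 3D of iHep-1, against 4.84 and 5.33 in 2D. Its differences, 0.36 in iHep-2 and -0.29 in iHep-1, had opposite signs.

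Itgb3, the partner of Itgav and, in platelets, of Itga2b, was at 3.05 in 3D of iHep-2 and 0.07 in 3D of iHep-1, against 3.64 and 0.80 in 2D. By this probe, which holds the TG repeat, it was lower in 3D by 0.59 in iHep-2 and by 0.72 in iHep-1. The other probe was at -0.31 in 3D of iHep-2 and -2.93 in 3D of iHep-1, against -1.71 and -3.46 in 2D. It was higher in 3D by 1.40 and 0.53, so the culture direction of Itgb3 depends on the probe. Of the 13 chains with at least 2 probes that passed the filter, 12 had the same sign of the mean difference on all of them. Itgb3 was the exception by that measure. The sign of the mean can hide probes that differ in sign within an experiment, as those of Itga1, Itga3, Itgal and Lama3 did. An Itga1 probe counted as positive had a mean of 0.0001.

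Itgb6, an epithelial chain that pairs with Itgav, was not well above background on either array of iHep-1. It was at -5.39 in 3D of iHep-2, against -3.47 in 2D of iHep-2. In iHep-2 it was thus 1.92 log2 units lower in 3D.

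Trimers of Lama5 with Lamc1 and either Lamb2 or Lamb1 are common in epithelial basement membranes. Lama5 was at 2.19 in 3D of iHep-2 and 2.36 in 3D of iHep-1, against 3.92 and 2.72 in 2D. It was lower in 3D by 1.73 and 0.36, mostly through the high 2D array of iHep-2, with a mean difference of -1.05 ± 0.50 (SE of the limma fit, adjusted p = 0.699). Lamc1, the gamma chain of most laminins, was at 3.54 in 3D of iHep-2 and 3.58 in 3D of iHep-1, against 4.41 and 3.71 in 2D. The 3D arrays were alike and the 2D array of iHep-2 was again the highest.

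Lamb2 was at 3.76 in 3D of iHep-2 and 2.83 in 3D of iHep-1, against 4.38 and 3.22 in 2D. It was lower in 3D by 0.62 and 0.39 within each experiment, and the groups overlapped because both arrays of iHep-2 were high. Lamb1 was at -5.85 in 3D of iHep-1, against -4.59 and -5.38 in 2D of iHep-2 and iHep-1, and was not well above background in 3D of iHep-2. It was at least 1.96-fold higher in 2D than in 3D in iHep-2. Each of these 4 chains has 1 probe on the array.

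Lama2 and Lama4 are laminin alpha chains known from muscle and vessels. Lama2 was at -5.63 in 3D of iHep-1, against -4.46 in 2D of iHep-1, and was not well above background in iHep-2. Its probe lies on 10 spots, whose SD on an array was 0.154 to 0.680, and 8 to 10 of them were used. Lama4 was at -5.16 in 3D of iHep-2 and -3.40 in 3D of iHep-1, against -5.01 and -4.16 in 2D. It differed by -0.15 in iHep-2 and by 0.75 in iHep-1.

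Another 4 chains are best known from white blood cells. Itgal, the alpha chain of a lymphocyte receptor for Icam1, was at -2.80 in 3D of iHep-2 and -4.14 in 3D of iHep-1, against -4.04 and -3.68 in 2D. Its 3D array of iHep-2 was the high one, 2.35-fold above the 2D array. A second Itgal probe, well above background on 3 arrays, had higher measured values in 3D in both experiments, by 2.91 in iHep-2 and by 0.66 in iHep-1. Itgb2, its partner, was at -5.08 in 3D of iHep-2 and -4.39 in 3D of iHep-1, against -4.89 and -4.59 in 2D, so the pair did not follow the same order.

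Itgae, which binds E-cadherin in lymphocytes of epithelia, was at -3.71 in 3D of iHep-1, against -5.81 and -4.90 in 2D of iHep-2 and iHep-1, and was not well above background in 3D of iHep-2. Itgax, a chain of dendritic cells, was not well above background on either 3D array, against -5.79 and -5.26 in 2D of iHep-2 and iHep-1. It was at least 1.73-fold lower in 3D in iHep-1, and no direction could be given in iHep-2. Leukocyte markers summed to 2.67 and 10.6 in 3D of iHep-2 and iHep-1, against 2.77 and 6.96 in 2D. Cd14 was the largest part of each sum, at log2 levels of 1.11 and 3.19 in 3D against 1.19 and 2.36 in 2D. Other markers, Cd3e and Fcer1g among them, did not share its order between the experiments in 3D. Of these 10 markers, 7 were well above background on at least 2 arrays and the defining marker Ptprc on none. The part of these cells in the integrin values was not tested.

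The other 10 chains were too dim to be tested. Itga11, Itga9, Itgam, Lama1 and Lamc3 were well above background on 0 arrays by any probe. Itga2, Itga2b, Itga4, Itgb7 and Itgb8 were so on 1 array each. Itga2b is the platelet partner of Itgb3, and the platelet markers Pf4, Gp9, Gp1ba and Ppbp were well above background on 0 arrays.

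The comparison of iHep-2 with iHep-1 asked how far the 2 preparations of cells differed in the same chains. Itgb3, Itga6 and Lamb3 were at least 2-fold higher in iHep-2 in both cultures, which are 3 of 26 chains (5.12% of all tested genes). With normexp, Itgb3 and Itga6 were (2 chains, 2.76%), and the mean difference of Lamb3 was 0.99, against 2.16 as reported. The measured values of Itga8 and Lama2 were lower by 2-fold or more in both, which are 2 of 26 (5.75%), but neither was well above background in iHep-2, and for 3D a 2-fold difference was not established. Both iHep-2 arrays lay above both iHep-1 arrays for 6 chains (19.0%), Itga6, Itgb3, Itgb6, Lamb2 and Lamb3 among them. They lay below for 8 chains (22.6%), which were Itga5, Itga8, Itgae, Itgav, Itgb2, Lama2, Lama3 and Lama4, with dim arrays at their measured value. The second Lama3 probe went the other way, higher in iHep-2 by 0.62 in 3D and 0.66 in 2D, and with a mean over a gene's probes 7 chains lay below (23.1%), without Lama3.

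Itgb3 differed by 2.97 in 3D and 2.84 in 2D, a mean of 2.91 ± 0.40 (SE of the limma fit, adjusted p = 0.0956). Its processed signal was 3298 in 3D of iHep-2 and 626 in 3D of iHep-1, and 7681 in 2D of iHep-2 and 909 in 2D of iHep-1. The other probe gave 2.62 in 3D and 1.75 in 2D, so both probes put Itgb3 higher in iHep-2 in either culture. In the limma tests between experiments, the 3D and 2D arrays of an experiment stood as its replicates. The SEs and p of these tests therefore do not measure the spread between preparations. limma called 54 of 16451 genes at an adjusted p of 0.05 (0.328%) and 0 of the 26 chains. At an unadjusted p of 0.05 it called 9 chains (12.7% of all tested genes), Itga5, Itga6, Itga8, Itgb3, Lama2, Lama4, Lamb2 and Lamb3 among them. With the culture as a block, limma called 303 genes (1.84%), 141 of them higher in iHep-2 (0.857%), and Itgb3 was the 1 chain among them, higher with an adjusted p of 0.0448.

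Itga6 differed by 1.49 in 3D and 1.90 in 2D, a mean of 1.70 ± 0.29 (SE of the limma fit, adjusted p = 0.128). A second probe gave 1.42 and 2.01. The third gave measured values of 1.69 and 2.57, but it was well above background on 2 arrays only, those of iHep-2. It thus passed the filter only through iHep-2, and its differences rest on floor values in iHep-1. Lamb3 differed by 1.66 in 3D and 2.65 in 2D (adjusted p = 0.185 in limma). Lamb2 differed by 0.93 in 3D and 1.16 in 2D. In 2D, these 3 chains were all more than 2-fold higher in iHep-2.

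By the brightest probe, the difference between the experiments was wider in 2D for several epithelial chains. Itgb4 differed by 0.43 in 3D and 2.57 in 2D, Lama5 by -0.17 and 1.20, and Itga3 by -0.11 and 0.93. The measured values of the Itgb4 and Itga3 probes disagreed in this. Another Itga3 probe gave 0.49 in 3D and 0.08 in 2D. The upstream Itgb4 probe gave 1.21 in 3D and a measured 0.60 in 2D. It was not well above background in 2D of iHep-1, so for Itgb4 a disagreement was not established. The remaining probe of each went with the brightest, at 0.46 and 2.47 for Itgb4 and at -0.20 and 0.96 for Itga3. By measured values in 2D, 8 chains were at least 2-fold higher in iHep-2 (9.84% of all tested genes), Itga6, Itgb3, Itgb4, Itgb6, Lama5, Lamb2 and Lamb3 among them, and 3 were lower (10.1%), which were Itga8, Lama2 and Lama3. By measured values in 3D, 4 were higher (10.5%), which were Itga6, Itgal, Itgb3 and Lamb3, and 5 were lower (10.5%), which were Itga8, Itgae, Lama2, Lama4 and Lamb1. Whether these gaps differ between cultures was not tested.

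Some of these rest on probes near background. Itga8 and Lama2 were not well above background on either iHep-2 array, and in the mean of both cultures were at least 4.28-fold and 1.80-fold lower there than in iHep-1. In 3D alone the bound was 1.42-fold for Itga8, and none could be given for Lama2 and Lamb1, whose levels in 3D of iHep-1 lay under the lowest signal well above background in 3D of iHep-2. In 2D alone it was 12.9-fold for Itga8 and 3.40-fold for Lama2. Itgb6 was at least 3.02-fold higher in iHep-2 in the mean of both cultures, 1.59-fold in 3D alone and 5.73-fold in 2D alone. With normexp its mean difference was 0.65, against a measured 1.70 without it. Cholangiocyte markers summed to 30.1 in 3D of iHep-2 and 25.3 in 3D of iHep-1, and to 46.8 in 2D of iHep-2 and 16.1 in 2D of iHep-1. The lowest sum and the lowest Itgb4 and Lamb3 levels were thus on the same array, 2D of iHep-1. Of the 6 markers, Krt19, Krt7, Sox9 and Epcam were lowest there. Spp1, the brightest of them on that array at 3.47, was lowest in 3D of iHep-2 at 1.07. Cftr was highest in 2D of iHep-1. The part of such cells in the result was not tested. Fibroblast markers summed to 7.63 and 7.35 in 3D of iHep-2 and iHep-1, against 4.91 and 4.57 in 2D. Of these 8 markers, Pdgfra and Col1a2 were well above background on 4 arrays and Twist2 on 3. Col1a1 and Col3a1 were so on 1 array each, and Dcn, Lum and Thy1 on 0. Pdgfra was at 2.91 and 2.80 in 3D of iHep-2 and iHep-1, against 2.25 and 2.15 in 2D.

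**Figure D4:**
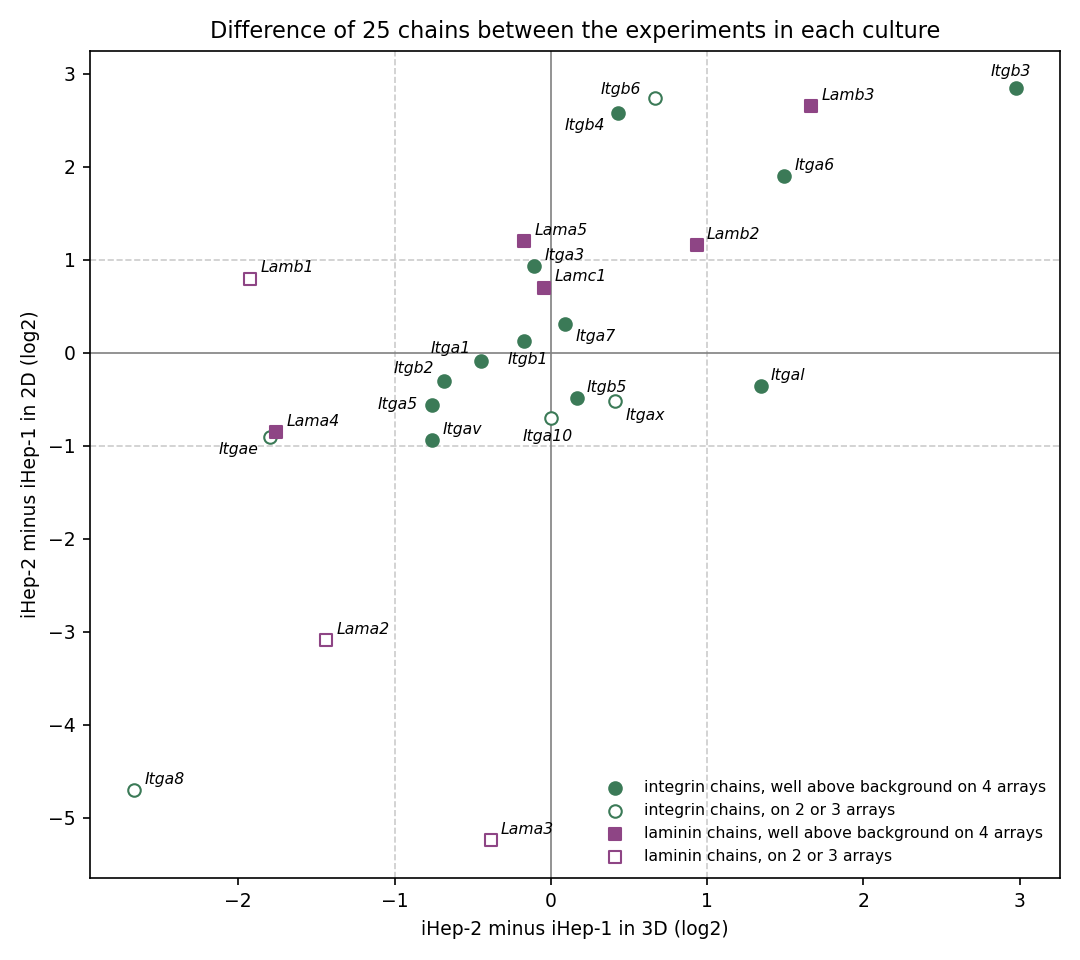
Difference of 25 of the 26 tested chains between iHep-2 and iHep-1 in log2 units, with 3D on the horizontal and 2D on the vertical axis. Symbols are as in the plot of culture differences. Itgb3 lies at 2.97 and 2.84 and Itga6 at 1.49 and 1.90, whereas Itgb4 and Itgb6 lie above 2-fold in 2D and under it in 3D.

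Genes that act with these chains were read from 4 lists. Of the 32 genes of the adhesion plaque, which links integrins to actin, 30 were tested, and 0 passed the adjusted test of culture. In 3D, 6 were higher and 19 lower in both experiments (33.2% and 33.0% of all tested genes), with medians of -0.33 in iHep-2 and -0.10 in iHep-1. Lims2, an adaptor of the integrin-linked kinase complex, was at 5.86 and 5.39 in 3D of iHep-2 and iHep-1, against 4.61 and 4.43 in 2D. Tln2, a talin, was at -0.39 and 1.58 in 3D against 0.89 and 2.91 in 2D. It was the 1 gene of the list at least 2-fold lower in both experiments (2.13% of all tested genes). Tns2, a tensin, differed by 0.52 and 0.87.

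Among the core activators, Tln1, the main talin, differed by -0.53 in iHep-2 and by -0.10 in iHep-1, Fermt2, a kindlin, by -0.34 and -0.65, and Ilk, the integrin-linked kinase, by -0.17 in both. Fermt1, the epithelial kindlin, was at -2.91 and -5.20 in 3D of iHep-2 and iHep-1, and at -3.06 and -5.49 in 2D. It was higher in iHep-2 by 2.28 in 3D and 2.43 in 2D. Parvg passed the adjusted test between experiments.

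Of the 16 basement membrane partners of laminin, 14 were tested and 0 passed the test of culture. In 3D, 4 were higher and 5 lower in both experiments (33.2% and 33.0% of all tested genes). Col4a1 and Col4a2, the chains of the collagen network of the basement membrane, were lower in 3D, Col4a1 by 0.94 in iHep-2 and by 1.06 in iHep-1 and Col4a2 by 1.18 and 0.77. Nid2, a nidogen that joins laminin to that network, was at -0.36 and -4.64 in 3D of iHep-2 and iHep-1, against 0.81 and -3.36 in 2D. Nid1, the other nidogen, was at -0.81 and 1.75 in 3D, against -0.62 and 0.69 in 2D. Nid2 was the 1 gene of the list past 2-fold lower in 3D in each experiment (2.13% of all tested genes). Between experiments, Nid2 was thus the higher and Nid1 the lower in iHep-2, whichever the culture.

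Smoc1 was the 1 gene of that list past 2-fold higher in 3D in each experiment (4.26% of all tested genes). It was at -4.91 and -1.82 in 3D against -8.28 and -2.96 in 2D, and was well above background on 3 arrays. Hspg2, perlecan, differed by -1.11 in iHep-2 and by 0.51 in iHep-1. Of the 12 other laminin receptors and hemidesmosome genes, 11 were tested. In 3D, 3 were higher and 5 lower in both experiments (33.2% and 33.0% of all tested genes). Dag1, dystroglycan, differed by -0.33 and -0.34, Rpsa, the laminin receptor and ribosomal protein, by -0.59 and -0.44, and Sgcb, a sarcoglycan, by -1.16 and -0.73. Sgce passed the limma test between experiments (adjusted p = 0.0485), lower in iHep-2. It was well above background on 2 arrays. Its iHep-2 levels, -7.75 in 3D and -8.10 in 2D, lay under the lowest signal well above background there. It thus passed the filter only through iHep-1, where it was at -2.78 and -3.42, and the test rests on floor values in iHep-2.

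Of the 24 other integrin ligands, 18 were tested and 0 passed the test of culture. In 3D, 4 were higher and 5 lower in both experiments (33.2% and 33.0% of all tested genes). Fga, a fibrinogen chain made by hepatocytes, was higher by 3.38 in iHep-2 and by 3.16 in iHep-1. Ccn2, a matricellular ligand, was lower by 2.92 and 1.80, and Tnc, tenascin C, was not well above background in 3D, against -2.54 and -4.90 in 2D of iHep-2 and iHep-1. Icam1, the ligand of Itgal with Itgb2, was at 1.27 and 2.64 in 3D of iHep-2 and iHep-1, against 3.86 and 3.63 in 2D.

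Ligands of the Itgav pairs did not share a direction. Vtn, vitronectin, differed by 1.13 in iHep-2 and by -0.21 in iHep-1, and Spp1, osteopontin, by -2.74 and 0.12. Fn1, fibronectin, differed by -1.14 and -0.13. Thbs2 passed the adjusted test between experiments.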

How the data were processed

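RNA was amplified, labelled with Cy3 and hybridised to 1-colour Agilent arrays, per the labels' protocols. The spot values deposited by the authors are linear intensity from Feature Extraction, for which the processing notes give version 9.5.1.1 and the file headers 10.7.1.1. The authors' series table of intensity values was an alternative, with equal medians within an experiment (22.6 in iHep-2, 26.3 in iHep-1) and its scaling between experiments not stated. All arrays lay on 1 slide with 1 scan time.

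Outlier spots were left out (72 to 85 per array), log2 of the deposited processed signal minus each array's 75th percentile was taken, and spots of a probe were averaged. Tested probes were well above background on 2 or more of the 4 arrays, and the brightest stood for its gene. Fits used limma 3.58.1 in R 4.3.3 (lmFit, eBayes; two-sided; Benjamini-Hochberg over 16451 genes; 2 residual and 1.58 prior degrees of freedom) and were tested on simulated data. The design text makes the arrays of an experiment a pair, and their deviations from the culture means correlated across genes (r = 0.66). A probe dim on every array of a group gives a bound, from the lowest signal well above background.

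Members and gene lists were chosen with earlier results of these data known. Every chain is named but 1, which is not reported here, as is 1 gene of another list. Of each other list, up to 4 genes are named whose smaller difference of the same sign over both experiments was largest, with 10 set partners. Parvg and Thbs2 were chosen after their values were seen.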

Additional observations from a re-analysis of the deposited data

Results flagged for a closer look

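For 10 of the 26 tested chains the measured culture difference had opposite signs in the 2 experiments, and opposite signs were found for 33.8% of all tested genes. For 4 of the 10, Lama3, Lama2, Itgax and Itgb6, 1 or 2 arrays were not well above background, so the values are not given as differences. Of the others, 5 are described here, and the difference between the experiments was not tested in any of them. The culture difference in iHep-2 minus that in iHep-1, in log2 units, was 1.70 for Itgal and 0.65 for Itgb5, which were relatively higher in 3D in iHep-2. It was -0.19 for Itga5, -0.38 for Itgb2 and -0.90 for Lama4, which were relatively higher in 3D in iHep-1. The second Itgal probe had higher measured values in 3D in both experiments, by 2.91 in iHep-2 and by 0.66 in iHep-1, and with a mean over a gene's probes Itgal no longer had opposite signs.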

How the results depend on the processing

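With the experiment as a replicate block, limma called 0 genes between cultures, as without it. Spike-in scaling called 291 genes between cultures (76 higher and 215 lower in 3D), 4 integrins and 4 laminins at least 2-fold lower in 3D in both experiments (20.3% of all tested genes), and 6 chains at least 2-fold higher in iHep-2 in both cultures (4.94%). Averaging a gene's probes gave 1 integrin, Itgb4, past 2-fold higher in 3D in each experiment (4.26%). The integrins' median of 0.01 was 0.12 with normexp, -0.17 with the authors' table, -1.09 with spike-in scaling and -0.17 with quantile normalization. The laminins' median of -0.35 was 0.065, -0.54, -1.45 and -0.50 in the same order, and -0.10 for genes well above background on all 4 arrays. The count of 2 chains lower in iHep-2, Itga8 and Lama2, was 0 with normexp (2.57% of all tested genes). That stricter filter left both chains out, so its count of 0 was set in advance. Genes called between experiments, 54 as reported, were 103 with normexp, 125 with the authors' table, 403 with spike-in scaling, 126 with quantile normalization, 3 with the stricter filter, 303 with culture as a block and 31 with an intensity trend and robust prior. With spike-in scaling the smallest adjusted p from limma was 2.47e-24 between cultures and 8.18e-17 between experiments, against 0.497 and 0.028 as reported. Values that small from 4 arrays are not taken at face value, nor are the 291 and 403 genes called. The causes of these shifts were not tested.

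Leaving out any 1 array left 0 genes called between experiments. It leaves 1 complete pair, so a count over both became a count in that pair. At least 2-fold higher in 3D were then 2 integrins in every case and 1 to 2 laminins. All tested genes gave 12.6% in iHep-2 and 7.8% in iHep-1. At least 2-fold lower were 1 to 2 integrins and 2 laminins in every case (8.32% and 4.07%). Without either 3D array, 8 chains were at least 2-fold higher in iHep-2 (9.84%) and 3 lower (10.1%). Without either 2D array, 4 were higher (10.5%) and 5 lower (10.5%). The integrins' median ran from -0.15 to 0.21 and that of the laminins from -0.85 to -0.15. Of single chains, the sign of the culture difference turned for Itga5, Itgax and Lama2 with normexp, and for Itgb2 and Itgb5 with quantile normalization and the authors' table. It turned for Itgb3 with a mean over probes. Dim probes limit what can be said of 8 of the 26 chains, which were well above background on 2 or 3 arrays.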
